A study of Mus musculus with 12 samples.

Results

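The genes described here are those of the Nrf2, glutathione and antioxidant system, measured in mouse lungs after injurious ventilation with and without the gene Gadd45a. They were chosen by name, as probe sets annotated to 39 listed genes on all 12 arrays, and 35 of the 39 were tested among 10996 genes. Each of the 35 passed the filter on low values. Prdx1 and Ftl1 were represented only by probe sets annotated to several genes, and Prdx6 and G6pdx had no probe set under their symbols, so these 4 were not analysed here.

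Lungs of mice aged 8 to 12 weeks were profiled on single-colour Affymetrix arrays, with 3 arrays per group and 3 mice per group in the design text. The 4 groups combined 2 genotypes, wild type and GADD45-/-, with the labels SB and VILI. VILI is ventilator-induced lung injury. The mice received 65 breaths per minute over 4 hours, each of 30 ml/kg. SB is not spelled out in the labels, the design text calls the wild type SB group the control, and the labels give no strain, sex or ventilator setting for those mice. The knockout allele is called GADD45-/- or GADD-/- in the labels and Gadd45a in the series title, and the deletion is present in both knockout groups. All values are log2 expression values normalized by the authors. A difference of 1 on this scale is a doubling, and the levels of different genes are not compared.

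Nrf2, encoded by Nfe2l2, is a transcription factor that is held in the cytoplasm and sent for degradation by Keap1 until oxidants or electrophiles modify Keap1. Freed Nrf2 pairs with small Maf proteins on antioxidant response elements and raises genes that make glutathione, regenerate thioredoxin, supply NADPH and conjugate reactive compounds. In the lung it is known chiefly from airway and alveolar epithelium and from macrophages, which meet inhaled oxygen and the oxidants of neutrophils.

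The arrays carried lung markers at high levels. Sftpc, the surfactant protein of type II cells, lay between 15.12 and 15.55, and Scgb1a1, the club cell secretory protein, between 15.52 and 15.86. Gadd45a read 8.62 to 10.33 on the wild type arrays and 4.58 to 6.15 on the knockout arrays. Arrays of one group correlated at 0.963 to 0.995 over all genes. The arrays numbered 3 in the knockout groups, 1 from SB and 1 from VILI, lay apart from the rest on principal component 2, with scores of 42.4 and 27.7 against at most 15.4 on the others. They also had the highest mean of the 4 tested B cell markers, 10.51 and 11 against 5.91 to 8.35. For VILI within a genotype and for the genotypes in SB, counts of called members are given with and without them. Medians and overlap counts are given with all arrays only.

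Averaged over both genotypes, Slc7a11, which imports cystine, Gclc and Gclm, the subunits of the first enzyme of glutathione synthesis, and Gsr, which recycles glutathione, rose after ventilation. Txnrd1 and Srxn1 of the thioredoxin system, Hmox1, the NADPH genes Pgd and Taldo1, and the peroxidase Gpx2 rose too, while Gss, the second enzyme of glutathione synthesis, did not pass (0.14, adjusted p = 0.587). Of the 8 enzymes that remove superoxide and peroxide, Cat fell slightly and, beside Gpx2, the other 6 did not pass. In the test averaged over genotypes, 10 of 35 members rose and 2 fell, against 8.42% higher and 9.39% lower over all genes tested (17.8% in either direction). The members' median change was 0.07 and that of all genes -0.03. Slc7a11 rose 7.1-fold, an approximate value because its SB means lay near or below the array medians, Hmox1 4.46-fold, Srxn1 3.78-fold, Gclc 1.98-fold, Txnrd1 1.92-fold and Gsr 1.91-fold. Tests were made with limma on all 12 arrays and adjusted by Benjamini-Hochberg over the 10996 genes, and a call is an adjusted p under 0.05. Leaving out each array in turn gave 8 to 14 called members. The 8 members Slc7a11, Gclc, Gsr, Txnrd1, Srxn1, Hmox1, Pgd and Gpx2 kept this call in each of the 12 fits and under each of the 8 other settings.

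**Figure D1:**
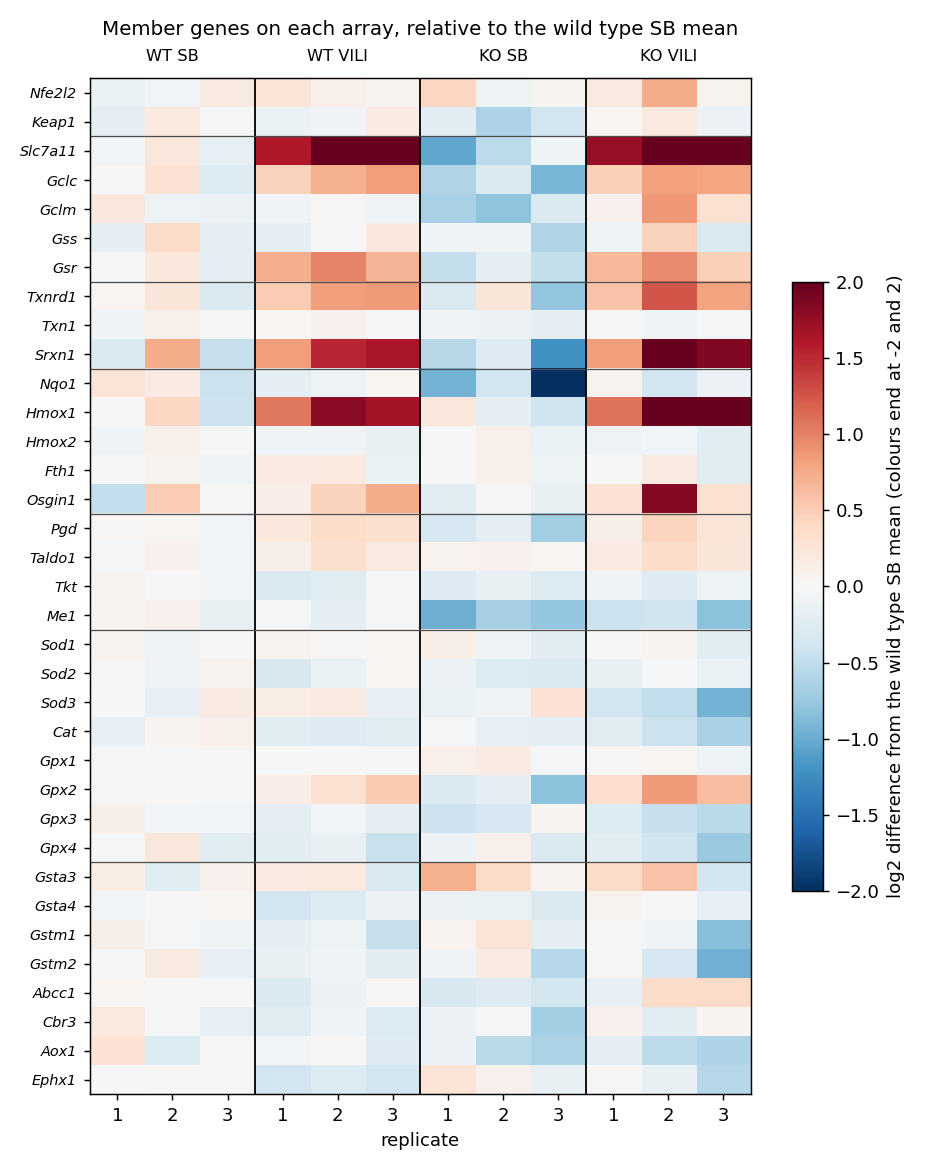
Each of the 35 tested members (rows, grouped by role) on each of the 12 arrays (columns), as the log2 difference from the wild type SB mean of that gene. Slc7a11, Srxn1 and Hmox1 are the rows with the deepest colour after VILI, and the rows of Sod1, Gpx1, Txn1 and Hmox2 stay pale on all 12 arrays; colours end at -2 and 2.

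Within single genotypes fewer members passed. In wild type lungs 2 of 35 rose and 0 fell for VILI, against 1.36% higher and 1.28% lower over all genes (2.64% in either direction), and the members' median was -0.01 against -0.05. The 2 were Slc7a11 and Gsr. In knockout lungs 9 of 35 rose and 0 fell, against 2.76% higher and 1.7% lower (4.47% in either direction), with a median of 0.20 against 0.00. The 9 were Slc7a11, Gclc, Gclm, Gsr, Txnrd1, Srxn1, Hmox1, Pgd and Gpx2. In wild type 9 members had every VILI array above every SB array and 5 had every one below, against 11.6% and 20% of all genes. In knockout these counts were 15 and 2, against 12.9% and 10.6%.

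These calls depended on single arrays and on the settings. The wild type count was 3 without knockout SB replicate 3 or knockout VILI replicate 1. It was 0 without wild type SB replicate 1 or 3 or any 1 wild type VILI array, and 1 without wild type SB replicate 2. The knockout count was 3 without knockout VILI replicate 2, 5 without knockout SB replicate 1 and 6 without knockout VILI replicate 3, and it was 12 without knockout VILI replicate 1. It was 4 without the 2 arrays that stood apart, and 0 when only the 6 knockout arrays were fitted. In that small fit 11 genes passed in all. Calls over all 10996 genes moved as well. In knockout 491 genes passed with all arrays, 69 without knockout VILI replicate 2 and 182 without knockout SB replicate 1. There were 192 without knockout VILI replicate 3, 713 without knockout VILI replicate 1 and 110 without the 2 arrays that stood apart. In wild type 290 genes passed with all arrays and 19 to 487 without 1 array.

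**Figure D2:**
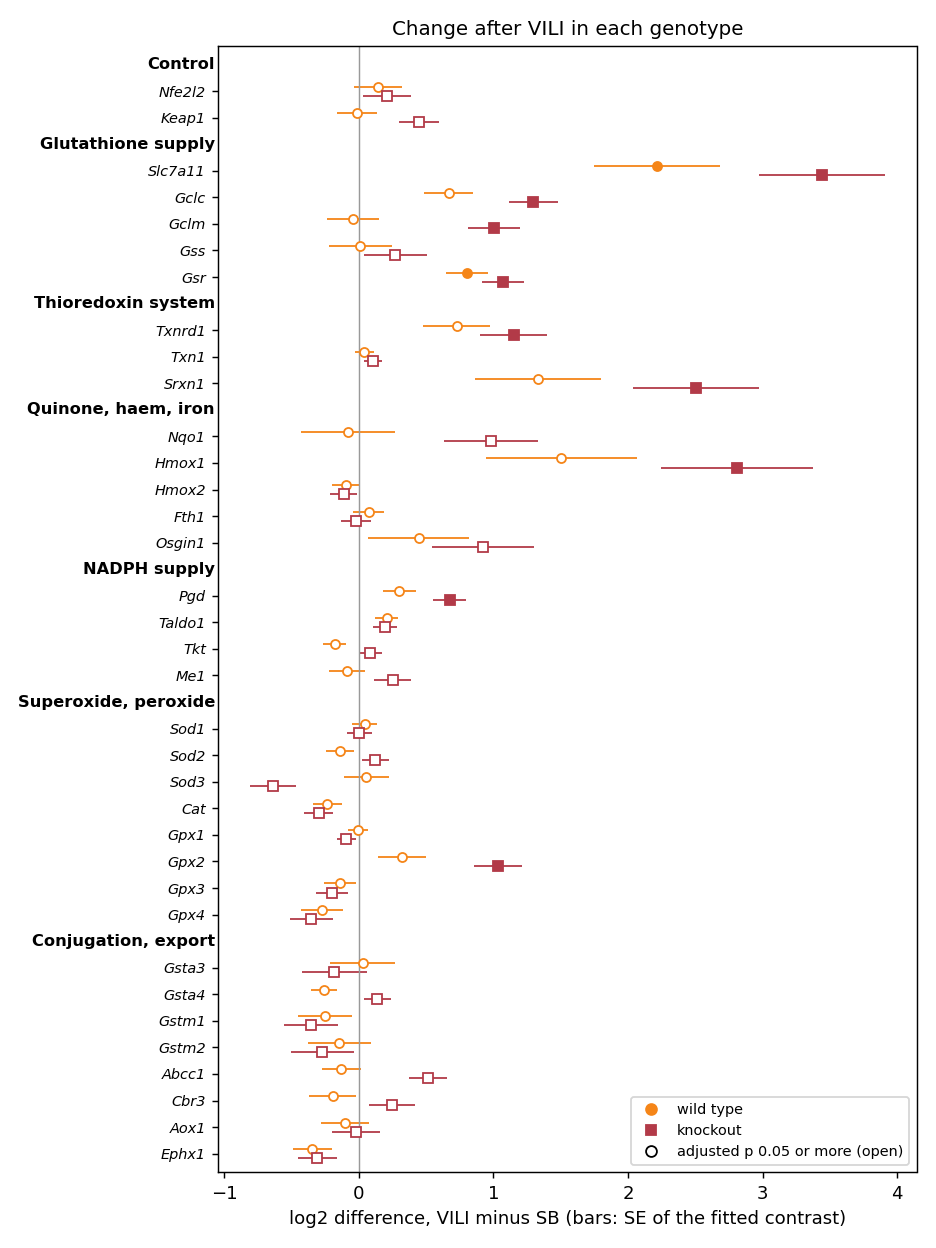
Log2 difference, VILI minus SB, of each tested member in wild type (circles) and knockout (squares), with bars for the standard error of the fitted contrast; filled symbols have an adjusted p under 0.05. The largest differences are those of Slc7a11, 2.21 in wild type and 3.44 in knockout, followed by Hmox1 and Srxn1.

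Neither controller passed a test. Nfe2l2 read 11.72, 11.80 and 12.02 in wild type SB and 12.11, 11.94 and 11.92 after VILI. In knockout it read 12.28, 11.74 and 11.90 in SB and 12.04, 12.60 and 11.92 after VILI. The groups overlapped, and the change averaged over genotypes was 0.18 (SE 0.13, adjusted p = 0.362). Keap1 read 8.66, 9.03 and 8.81 in wild type SB, and 8.70, 8.76 and 8.99 after VILI. The knockout arrays read 8.60, 8.21 and 8.45 in SB and 8.87, 9.03 and 8.71 after VILI. Each knockout VILI array lay above each knockout SB array for Keap1, at a difference of 0.45 (SE 0.15, adjusted p = 0.109). The second kept probe set of Keap1 had the larger difference in wild type instead. It was at 0.47 in wild type (adjusted p = 0.211 over kept probe sets) and 0.14 in knockout (0.725). The array measures messenger RNA, and Nrf2 activity is set largely by the stability of the protein.

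Slc7a11, which encodes the transporter that brings in cystine for glutathione synthesis, had the largest change of all members in both genotypes. It read 4.86, 5.14 and 4.75 in wild type SB and 6.51, 7.27 and 7.61 after VILI. On knockout arrays it was 3.88, 4.40 and 4.83 in SB and 6.66, 8.80 and 7.97 after VILI. Every VILI array lay above every SB array, and replicate 1 was the lowest VILI array in each genotype. The rise was 2.21 in wild type (SE 0.47, adjusted p = 0.0359) and 3.44 in knockout (SE 0.47, adjusted p = 0.00595). The wild type call was lost without any 1 of the 6 wild type arrays, with adjusted p from 0.0616 to 0.14, and with no filter on low values (0.0797), while the knockout call held in each of the 12 fits. The SB means were 4.92 in wild type and 4.37 in knockout, near or below the array medians of 4.36 to 4.58, so the folds are approximate. A second probe set of Slc7a11 did not pass the filter on low values. Its SB and VILI means were 2.39 and 2.72 in wild type, a difference of 0.33. In knockout they were 2.34 and 4.56, a difference of 2.22.

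Glutamate-cysteine ligase, the first enzyme of glutathione synthesis, has a catalytic subunit from Gclc and a modifier subunit from Gclm. Gclc read 13.43, 13.72 and 13.15 in wild type SB and 13.89, 14.14 and 14.27 after VILI. Knockout lungs gave 12.84, 13.14 and 12.52 in SB and 13.91, 14.26 and 14.22 after VILI. The knockout SB arrays were the lowest and the VILI arrays of both genotypes overlapped, but neither the genotype difference in SB (-0.60, adjusted p = 0.321) nor the interaction (0.63, adjusted p = 1) passed. The rise in knockout was 1.30 (SE 0.18, adjusted p = 0.00595), and the wild type difference was 0.67 (SE 0.18, adjusted p = 0.0737), with no overlap between SB and VILI in either genotype. The second kept probe set of Gclc gave 0.88 in wild type and 1.55 in knockout.

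Gclm was called for VILI in knockout and not in wild type, and the test of that difference did not pass (interaction 1.04, SE 0.27, adjusted p = 1). It read 10.38, 10.07 and 10.04 in wild type SB and 10.09, 10.19 and 10.09 after VILI, which overlap. In knockout it read 9.52, 9.35 and 9.87 in SB and 10.25, 11.04 and 10.47 after VILI, which do not. The knockout rise was 1.0 (SE 0.19, adjusted p = 0.0194), and the wild type difference was -0.04 (SE 0.19, adjusted p = 0.932). The knockout call was lost without knockout VILI replicate 2 (0.0646), knockout SB replicate 1 (0.063) or knockout SB replicate 2 (0.0541). Averaged over genotypes Gclm rose by 0.48 (SE 0.14, adjusted p = 0.0347), which was lost with no filter on low values (0.0561) and in 8 of the 12 fits without 1 array, with adjusted p of at most 0.0803. The second kept probe set of Gclm was at 0.46 in wild type and 1.22 in knockout.

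Of the remaining glutathione genes, Gsr rose and Gss did not pass. Gsr encodes glutathione reductase, which returns oxidised glutathione to its reduced form. It read 8.72, 8.96 and 8.57 in wild type SB and 9.48, 9.75 and 9.43 after VILI. The knockout arrays read 8.28, 8.56 and 8.28 in SB and 9.39, 9.70 and 9.23 after VILI. No SB array reached any VILI array. The rise was 0.80 in wild type (SE 0.16, adjusted p = 0.029) and 1.07 in knockout (SE 0.16, adjusted p = 0.00788). The second kept probe set of Gsr was at 0.90 in wild type (adjusted p = 0.119 over kept probe sets) and 0.88 in knockout (0.12). Averaged over genotypes that probe set passed (0.89, adjusted p = 0.0162 over kept probe sets). The wild type call was lost with arrays centred (0.0507), with no filter on low values (0.0557), with the mean of its probe sets (0.0548) and without wild type SB replicate 1 (0.053) or 3 (0.118) or wild type VILI replicate 1 (0.0862), 2 (0.136) or 3 (0.0567). Gss, glutathione synthetase, the second enzyme of the pathway, had group means of 7.88, 7.89, 7.63 and 7.90 in the order wild type SB, wild type VILI, knockout SB and knockout VILI.

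**Figure D3:**
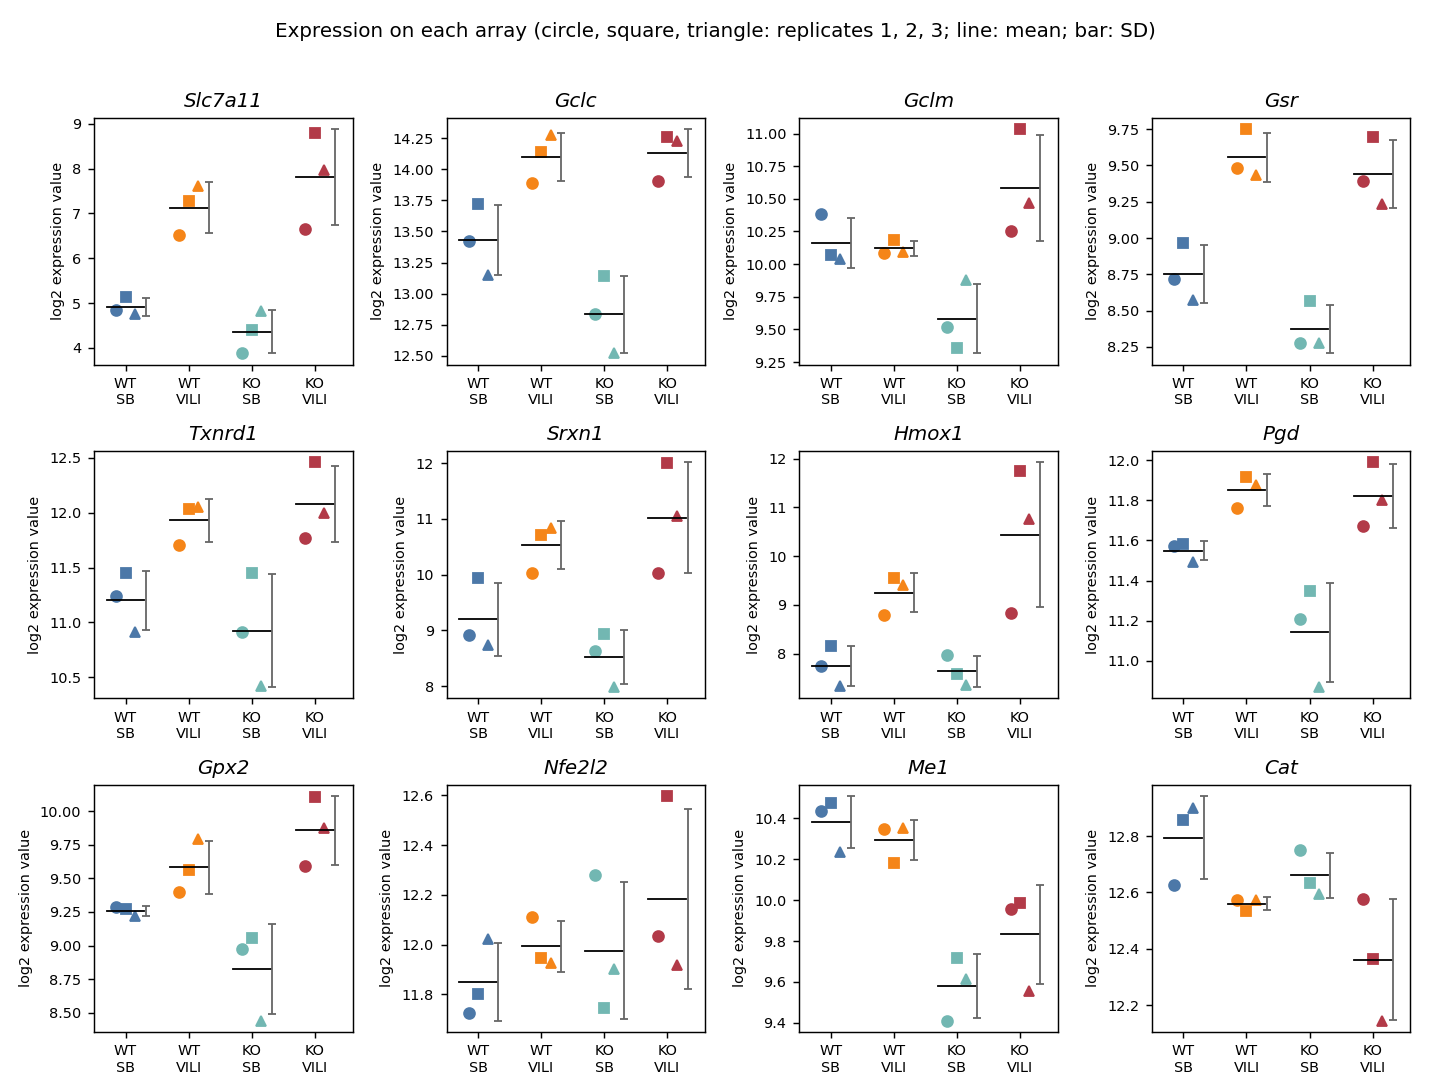
Log2 expression value (vertical axis, a separate range for each gene) of 12 members on each array, in the 4 groups, with the group mean as a line, the SD (n = 3) as a bar and a separate symbol for each replicate number (WT wild type, KO knockout). SB and VILI arrays separate in both genotypes, upward for Slc7a11, Gclc, Gsr, Txnrd1, Srxn1, Hmox1, Pgd and Gpx2 and downward for Cat. Gclm separates in knockout and Me1 separates by genotype.

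In the thioredoxin system the reductase and sulfiredoxin rose, and thioredoxin itself did not pass. Txnrd1, cytosolic thioredoxin reductase, read 11.24, 11.45 and 10.91 in wild type SB and 11.71, 12.03 and 12.05 after VILI. On knockout arrays it was 10.91, 11.45 and 10.42 in SB and 11.77, 12.46 and 12.00 after VILI. The rise was 0.94 averaged over genotypes (SE 0.18, adjusted p = 0.00606) and 1.15 in knockout (SE 0.25, adjusted p = 0.0273). The knockout call was lost without knockout SB replicate 1 (0.0809) or 3 (0.0612) or knockout VILI replicate 2 (0.116) or 3 (0.0666), and without the 2 arrays that stood apart (0.107). It was also lost with no filter on low values (0.0571) and with the mean of its probe sets (0.0857). In wild type the difference was 0.73 (SE 0.25, adjusted p = 0.132), and SB and VILI did not overlap in either genotype. The second kept probe set of Txnrd1 was at 1.24 in wild type (adjusted p = 0.232 over kept probe sets) and 1.37 in knockout (0.188). Averaged over genotypes it passed (1.31, adjusted p = 0.0422 over kept probe sets).

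Srxn1 encodes sulfiredoxin, which repairs peroxiredoxins that peroxide has over-oxidised. It read 8.91, 9.94 and 8.74 in wild type SB and 10.03, 10.72 and 10.83 after VILI. Knockout lungs gave 8.63, 8.94 and 7.98 in SB and 10.03, 12.00 and 11.05 after VILI. The lowest VILI arrays stood close to the highest wild type SB array, replicate 2. The change was 1.92 averaged over genotypes (SE 0.33, adjusted p = 0.004) and 2.50 in knockout (SE 0.47, adjusted p = 0.0174), and 1.33 in wild type (SE 0.47, adjusted p = 0.14). Without the 2 arrays that stood apart the knockout adjusted p was 0.0928. It was 0.0512 without knockout SB replicate 1, 0.0649 without knockout VILI replicate 2 and 0.051 without knockout VILI replicate 3. The 2 other kept probe sets of Srxn1 gave 2.26 and 2.74 averaged over genotypes. Txn1, thioredoxin itself, ranged from 12.94 to 13.23 over the 12 arrays and was at 0.07 (SE 0.05, adjusted p = 0.313).

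Hmox1 and Hmox2 encode the inducible and the constitutive haem oxygenase, which break down haem. Hmox1 read 7.74, 8.16 and 7.33 in wild type SB and 8.80, 9.55 and 9.41 after VILI. In knockout it read 7.98, 7.57 and 7.35 in SB and 8.83, 11.74 and 10.76 after VILI. Knockout VILI replicate 1 was close to the lowest wild type VILI array, and replicates 2 and 3 lay above every wild type array. The rise was 2.16 averaged over genotypes (SE 0.40, adjusted p = 0.00552) and 2.81 in knockout (SE 0.56, adjusted p = 0.0205), and the wild type difference was 1.50 (SE 0.56, adjusted p = 0.159). The knockout call was lost without any 1 of knockout SB replicates 1, 2 and 3 and knockout VILI replicates 2 and 3, with adjusted p from 0.0527 to 0.0744. It was also lost without the 2 arrays that stood apart (0.117) and with no filter on low values (0.0502). The wild type difference passed without knockout VILI replicate 1 (0.0332) and with only the wild type arrays (0.0374). Hmox2 lay between 9.31 and 9.63 on every array, with a change of -0.10 (SE 0.07, adjusted p = 0.331).

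The other quinone and iron genes did not pass. Nqo1, the quinone reductase that is a standard readout of Nrf2, read 6.70, 6.60 and 6.02 in wild type SB and 6.25, 6.34 and 6.48 after VILI. The knockout arrays read 5.50, 6.05 and 4.38 in SB and 6.51, 6.05 and 6.31 after VILI. The knockout SB arrays were the most scattered, and replicate 3 was the lowest of the 12. The change was 0.45 averaged over genotypes (SE 0.25, adjusted p = 0.224). Osgin1, an oxidative stress gene that restrains growth, was at 0.68 (SE 0.27, adjusted p = 0.0964), with knockout VILI replicate 2 at 10.21 and the other 11 arrays between 7.89 and 9.11. Fth1, the ferritin heavy chain that stores iron, lay between 14.55 and 14.97.

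Among the enzymes that supply NADPH, Pgd rose, Taldo1 passed narrowly and Tkt did not pass for VILI. Pgd encodes an oxidative enzyme of the pentose phosphate pathway. It read 11.57, 11.58 and 11.49 in wild type SB and 11.76, 11.92 and 11.88 after VILI. On knockout arrays it was 11.21, 11.35 and 10.87 in SB and 11.67, 11.99 and 11.80 after VILI. SB and VILI did not overlap in either genotype. The rise was 0.49 averaged over genotypes (SE 0.09, adjusted p = 0.00477) and 0.68 in knockout (SE 0.12, adjusted p = 0.0159), and the knockout call was lost without knockout VILI replicate 2 (0.0748) and without the 2 arrays that stood apart (0.0612). The 4 kept probe sets of Pgd gave averaged changes of 0.32 to 0.52.

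Taldo1, transaldolase of the same pathway, read 11.16, 11.28 and 11.14 in wild type SB and 11.31, 11.51 and 11.38 after VILI. Knockout lungs gave 11.26, 11.28 and 11.23 in SB and 11.35, 11.57 and 11.44 after VILI. Its averaged change was 0.20 (SE 0.06, adjusted p = 0.0451). That call held in 2 of the 12 fits without 1 array and was lost with centred arrays (0.156), with quantile normalization (0.0529), with no mean-variance trend (0.0738) and without the 2 arrays that stood apart (0.0874). The 10 fits that lost it gave adjusted p from 0.0569 to 0.116. Tkt, transketolase, was at -0.05 (SE 0.06, adjusted p = 0.636).

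The superoxide dismutases did not pass in the fit of all 12 arrays. Sod1, the cytosolic copper-zinc enzyme, read 13.36, 13.22 and 13.31 in wild type SB, and 13.37, 13.33 and 13.33 after VILI. In knockout it read 13.42, 13.22 and 13.09 in SB and 13.30, 13.35 and 13.09 after VILI. Sod2, the mitochondrial manganese enzyme, read 11.15, 11.04 and 11.19 in wild type SB, and 10.81, 10.99 and 11.17 after VILI. In knockout Sod2 read 11.02, 10.85 and 10.83 in SB and 10.98, 11.10 and 11 after VILI. Both genes overlapped between SB and VILI, with averaged changes of 0.02 (SE 0.07) for Sod1 and -0.01 (SE 0.07) for Sod2. Another kept probe set of Sod1 was lower after VILI by the averaged test (-0.26, adjusted p = 0.0379 over kept probe sets).

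Sod3, the extracellular dismutase of vessels and airways, was lower in the knockout VILI arrays. It read 11.12, 10.97 and 11.30 in wild type SB, and 11.28, 11.31 and 10.96 after VILI. The knockout arrays read 11, 11.06 and 11.42 in SB and 10.75, 10.63 and 10.18 after VILI. The 3 knockout VILI arrays lay below the other 9, and the knockout VILI difference was -0.64 (SE 0.17, adjusted p = 0.0579), or -0.75 (adjusted p = 0.0363) without knockout VILI replicate 1. The second kept probe set of Sod3 was at 0.43 in wild type (adjusted p = 0.559 over kept probe sets) and -1.01 in knockout (0.171).

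Catalase fell slightly, and of the 4 glutathione peroxidases Gpx2 rose and the other 3 did not pass. Cat, catalase, read 12.63, 12.86 and 12.90 in wild type SB and 12.57, 12.53 and 12.57 after VILI. On knockout arrays it was 12.75, 12.63 and 12.60 in SB and 12.58, 12.36 and 12.15 after VILI. Cat fell by 0.27 averaged over genotypes (SE 0.08, adjusted p = 0.038), and the VILI arrays lay below the SB arrays in each genotype. The call held in 3 of the 12 fits without 1 array, and the other 9 gave adjusted p from 0.0549 to 0.0886. It was also lost with no filter on low values (0.055), with no mean-variance trend (0.0623), with the mean of its probe sets (0.11) and without the 2 arrays that stood apart (0.0603). The second kept probe set of Cat was at -0.11 (adjusted p = 0.413 over kept probe sets).

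Gpx1 encodes the widespread cytosolic glutathione peroxidase. It read 12.57, 12.60 and 12.61 in wild type SB, and 12.59, 12.60 and 12.56 after VILI. Knockout lungs gave 12.70, 12.76 and 12.55 in SB and 12.61, 12.63 and 12.50 after VILI, and its averaged change was -0.05 (SE 0.05, adjusted p = 0.535). Gpx2, the epithelial form and an Nrf2 target, read 9.29, 9.27 and 9.22 in wild type SB, and 9.40, 9.56 and 9.79 after VILI. In knockout it read 8.97, 9.06 and 8.44 in SB and 9.59, 10.10 and 9.87 after VILI. Gpx2 was higher on every VILI array than on any SB array of its genotype, by 0.68 averaged over genotypes (SE 0.13, adjusted p = 0.00591) and 1.03 in knockout (SE 0.18, adjusted p = 0.0134). The knockout call was lost without knockout VILI replicate 2 (0.0626) and without the 2 arrays that stood apart (0.0614). Gpx3, the plasma form, was at -0.17 (SE 0.08, adjusted p = 0.183). Gpx4, which reduces lipid peroxides in membranes, was at -0.31 (SE 0.11, adjusted p = 0.0722). It passed with the replicate block (adjusted p = 0.0109), with the mean of its probe sets (-0.35, adjusted p = 0.0336), with quantile normalization (-0.36, adjusted p = 0.0371) and without knockout VILI replicate 1 (-0.37, adjusted p = 0.0423). The second kept probe set of Gpx4 was lower by the averaged test (-0.38, adjusted p = 0.0228 over kept probe sets).

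Of the 8 genes of conjugation, xenobiotic metabolism and export, 0 rose and 1 fell in the averaged test, with a median of -0.07. These shares are close to the 8.42% higher and 9.39% lower of all genes. Ephx1, microsomal epoxide hydrolase, read 11.55, 11.58 and 11.52 in wild type SB and 11.17, 11.28 and 11.16 after VILI. The knockout arrays read 11.82, 11.64 and 11.40 in SB and 11.57, 11.39 and 10.97 after VILI. Ephx1 fell by 0.33 averaged over genotypes (SE 0.10, adjusted p = 0.0479), which held in 2 of the 12 fits without 1 array, and the other 10 gave adjusted p from 0.0683 to 0.103. It was also lost with centred arrays (0.0521), with no filter on low values (0.0686) and with no mean-variance trend (0.0637). The wild type arrays separated and the knockout arrays overlapped. In wild type the difference was -0.35 (SE 0.15, adjusted p = 0.2). That difference passed with only the wild type arrays (0.0496) and without the 2 arrays that stood apart (0.0434). The glutathione transferases Gsta3, Gsta4, Gstm1 and Gstm2 had averaged changes of -0.08, -0.06, -0.30 and -0.21. Abcc1, an exporter of glutathione conjugates, was at -0.13 (SE 0.14) in wild type and 0.51 (SE 0.14, adjusted p = 0.0659) in knockout. Without knockout VILI replicate 1 the knockout value of Abcc1 was 0.69 (adjusted p = 0.00832). Cbr3, a carbonyl reductase, was at 0.03, and Aox1, an aldehyde oxidase, at -0.06.

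Markers of other cells moved with ventilation as well, and their part in these results was not tested. Of 14 neutrophil markers 11 were tested and 9 rose in each genotype, and 0 fell. Their mean level was 6.02 to 6.52 in wild type SB, 8.59 to 9.41 in wild type VILI, 6.50 to 7.02 in knockout SB and 8.81 to 10.34 in knockout VILI. Knockout VILI replicate 2, the highest array for Slc7a11, Srxn1, Hmox1, Osgin1 and Gclm, was also the highest for neutrophil markers, and replicate 1 was the lowest of its group for each of these. The wild type VILI arrays did not share this order. There replicate 3 was the lowest for neutrophil markers (8.59) and the highest for Slc7a11 (7.61), Srxn1 (10.83) and Osgin1 (9.11). Wild type VILI replicate 2 was the highest of its group for neutrophil markers, Hmox1 and Gclm. Camp did not pass the filter, and Retnlg and Ly6g had no probe set under their symbols. In whole lung, more cells of a type and more RNA per cell cannot be told apart.

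Some epithelial and endothelial markers fell after VILI, in shares that differed between the lists, against 9.39% of all genes. Club cell markers, 9 tested of 10, ranged from 13.66 to 13.83 and 13.33 to 13.52 in wild type SB and VILI, and from 13.47 to 13.55 and 12.90 to 13.40 in knockout. Of these 0 rose and 6 fell in the averaged test. The averaged test gave 0 higher and 5 lower of 10 ciliated cell markers, 0 and 3 of 9 for type II cells, 0 and 1 of 8 for type I cells, 0 and 6 of 12 for endothelium and 0 and 2 of 10 for fibroblasts and smooth muscle. It gave 1 higher and 0 lower of 10 for macrophages and monocytes, and 0 calls among 4 B cell and 6 T and NK cell markers. Of the 7 erythroid markers 4 had a probe set under their symbols, and 0 passed the filter.

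Knockout was compared with wild type within each treatment. In SB 0 of 35 members passed, against 0.109% of all genes tested (0.0455% higher and 0.0637% lower), with 11 members at an unadjusted limma p under 0.05, as were 1113 of the 10996 genes. The median difference, knockout minus wild type, was -0.23 for the members and -0.06 for all genes, and 27 of 35 were lower. Marker lists shifted in SB too, with medians of -0.49 for fibroblasts and smooth muscle, -0.43 for ciliated, -0.24 for type I and -0.21 for club cells. The medians were 0.01 for type II cells and endothelium, 0.11 for macrophages and monocytes, 0.45 for neutrophils, 0.90 for T and NK cells and 1.42 for B cells. The part of these shifts in the members' difference was not tested. In 11 members every knockout SB array lay below every wild type SB array, against 11.5% of all genes, and in 0 every array lay above, against 3.76%. The 11 were Keap1, Gclc, Gclm, Gsr, Pgd, Tkt, Me1, Sod2, Gpx2, Gsta4 and Abcc1. For Keap1 the second kept probe set went the other way in SB, at 0.31 (adjusted p = 0.574 over kept probe sets). Without the 2 arrays that stood apart 0 members passed in SB as well, with 13 genes called in all. The SB median and overlap counts include knockout SB replicate 3. Relative to the wild type SB mean, Nqo1 was at -0.94, -0.389 and -2.055 on knockout SB replicates 1, 2 and 3. After VILI 0 of 35 passed, against 0.1% of all genes (0.0455% higher and 0.0546% lower), with 6 at an unadjusted limma p under 0.05 (756 of the 10996 genes) and a median of 0.03 against -0.01. Every knockout VILI array lay above every wild type VILI array for Gclm, 1 of 35 against 6.64% of all genes, and below for Me1, Sod3 and Gpx3, 3 of 35 against 8.13%. Hmox1 was the member that passed when knockout VILI replicate 1 was left out (2.0, adjusted p = 0.041). The VILI change in knockout and the genotype difference in SB use the same knockout SB arrays, so a low value there enters both.

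**Figure D4:**
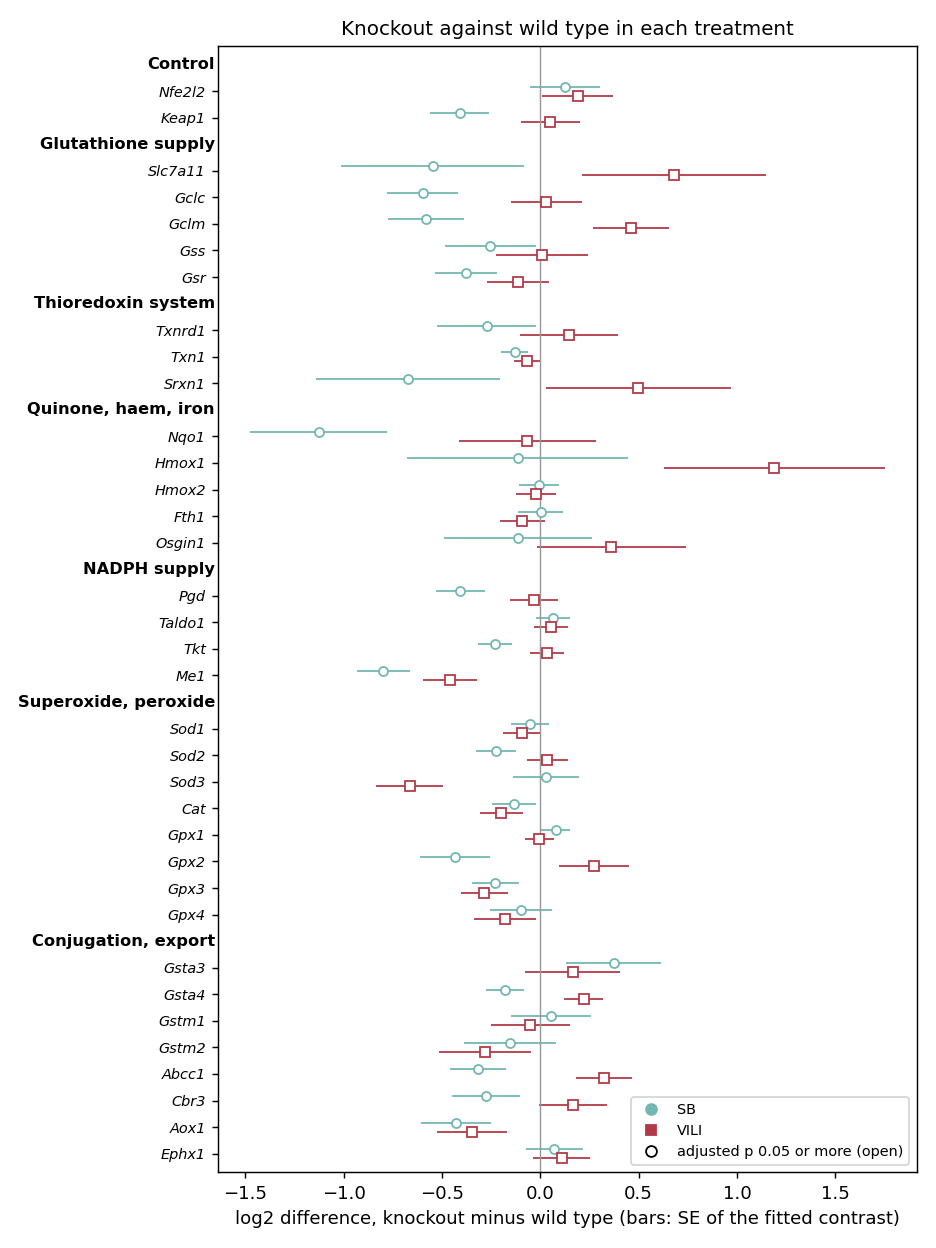
Log2 difference, knockout minus wild type, of each tested member in SB (circles) and after VILI (squares), with bars for the standard error of the fitted contrast; no symbol is filled because no member had an adjusted p under 0.05. In SB 27 of 35 members lie left of 0, with Nqo1 at -1.13 and Me1 at -0.80, and after VILI the members lie on both sides.

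Me1 was the member that passed for genotype. It encodes cytosolic malic enzyme, which makes NADPH from malate. Me1 read 10.43, 10.47 and 10.24 in wild type SB and 10.35, 10.18 and 10.35 after VILI. On knockout arrays it was 9.41, 9.72 and 9.61 in SB and 9.96, 9.99 and 9.55 after VILI. Every knockout array lay below every wild type array. Averaged over treatments, Me1 fell by 0.63 in knockout (SE 0.10, adjusted p = 0.0169), and it was 1 of 35 members called lower and 0 higher, against 0.346% and 0.109% of all genes (0.455% in either direction). The call was lost without wild type SB replicate 2 (0.0641), wild type VILI replicate 1 (0.0701) or wild type VILI replicate 3 (0.0594). It was also lost with the mean of its probe sets (0.0822), since the second gave -0.31 (adjusted p = 0.298 over kept probe sets). In SB alone the difference was -0.80 (SE 0.14, adjusted p = 0.057), or 0.021 without knockout VILI replicate 3, and after VILI it was -0.46 (SE 0.14, adjusted p = 0.455). Another gene of NADPH supply, Nnt, was higher in knockout by 1.43 averaged over treatments (adjusted p = 1.9e-05). Nnt encodes the mitochondrial transhydrogenase, and it is known to differ between mouse strains. Whether strain differed between the genotypes was not tested, and a strain difference and the deletion cannot be told apart in these data.

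Whether the response to VILI depended on genotype was tested as an interaction, the VILI change in knockout minus that in wild type. No member passed, against 0% of all genes, and 6 members had an unadjusted limma p under 0.05, as did 288 of the 10996 genes. The median of the members was 0.26 and that of all genes 0.06. The 6 were Gclm (1.04, SE 0.27), Abcc1 (0.64, SE 0.20), Sod3 (-0.69, SE 0.24), Gsta4 (0.40, SE 0.14), Gpx2 (0.71, SE 0.25) and Gclc (0.63, SE 0.25), each with an adjusted p of 1. For the members with the largest changes the differences were 1.23 (SE 0.66) for Slc7a11, 1.31 (SE 0.79) for Hmox1 and 1.17 (SE 0.66) for Srxn1. The larger number of calls in knockout is not shown to be a larger response.

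Promoter sequence was available from RefSeq (GRCm38.p6) for 29 of the 35 tested members, as windows of 250 bases before to 50 after an annotated start. Gclc, Gsr, Hmox1, Sod3, Gsta4 and Abcc1 had no entry. The core of the antioxidant response element was searched as TGACNNNGC on both strands. It was present for 8 of the 29, and for 14.0% of all 27025 genes with a window. The 8 were Nfe2l2, Gclm, Txnrd1, Srxn1, Pgd, Me1, Sod1 and Gsta3. An amino acid response element, bound by Atf4 and its relatives, was searched as TGATGNAA on both strands. It was present for 1 of the 29, Slc7a11, and for 4.51% of all genes. The stretches around the matches are shown for 4 members with the antioxidant core, of which 2 rose with VILI, 1 was lower in knockout and 1 is Nrf2 itself, and for Slc7a11, the member that rose most. Capitals mark the matches, and positions are counted from the start, with -1 the base before it.
Gclm: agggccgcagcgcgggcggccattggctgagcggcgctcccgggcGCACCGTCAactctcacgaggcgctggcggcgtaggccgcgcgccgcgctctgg
Txnrd1: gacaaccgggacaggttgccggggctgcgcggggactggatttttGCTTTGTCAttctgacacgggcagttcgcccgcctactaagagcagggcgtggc
Me1: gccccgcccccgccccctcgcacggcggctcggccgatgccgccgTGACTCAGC
Nfe2l2: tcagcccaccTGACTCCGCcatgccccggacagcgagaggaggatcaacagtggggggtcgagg
Slc7a11: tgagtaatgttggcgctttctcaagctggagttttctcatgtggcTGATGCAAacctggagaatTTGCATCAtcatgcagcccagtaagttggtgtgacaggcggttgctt

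The Gclm stretch is chr3:122245378-122245476 on the plus strand, with the match on the opposite strand at -134 to -126. The Txnrd1 stretch is chr10:82859069-82859167 on the plus strand, before 1 of its 3 annotated starts, with the match on the opposite strand at -92 to -84. The Me1 stretch is chr9:86695912-86695965 on the minus strand, and its match spans the start, from -6 to 3. The Me1 match also contains TGACTCA, the letters of an AP-1 site. The Nfe2l2 stretch is chr2:75704850-75704913 on the minus strand, with the match at -240 to -232. The Slc7a11 stretch is chr3:50443614-50443724 on the minus strand, with 1 match in each orientation, at -66 to -59 and at -47 to -40. A match is a run of letters, and binding was not measured here.

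Other genes of the same pathways, from lists of 163 genes of which 132 were tested, moved in both directions. In the averaged VILI test 17 rose and 21 fell, with a median of -0.06, against 8.42% higher and 9.39% lower over all genes and a median of -0.03. The counts of the single lists are small and are read against those same shares. Of 14 Nrf2 partners and regulators 3 rose and 1 fell. The small Maf genes Mafk (0.61, adjusted p = 0.0158) and Mafg (0.45, adjusted p = 0.0179), partners of Nrf2, rose with Cul3 (0.34, adjusted p = 0.0085), the ligase scaffold that Keap1 uses. Btrc, a subunit of another ligase that acts on Nrf2, fell by 0.88 (adjusted p = 0.0116).

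Of 31 tested genes of glutathione use and turnover 2 rose and 5 fell. Cth, which makes cysteine by transsulfuration, rose by 0.97 (adjusted p = 0.00284), and Glrx, glutaredoxin, by 0.40 (adjusted p = 0.023). The aminopeptidase Anpep fell by 1.77 (adjusted p = 0.00799), Gstt3 by 0.59, Gstt2 by 0.50, Hagh by 0.39 and Mgst1 by 0.28. Of 18 thioredoxin and peroxiredoxin genes 3 rose and 3 fell. Txnip, the inhibitor of thioredoxin, fell by 0.72 (adjusted p = 0.00063), and in wild type (-0.57, adjusted p = 0.0359) and knockout (-0.87, adjusted p = 0.00595) alone. Msrb1, a methionine sulfoxide reductase, rose by 0.65 and Sesn1 by 0.56.

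Of 13 further NADPH genes 1 rose and 3 fell. Mthfd2, a mitochondrial folate enzyme, rose by 2.09 (adjusted p = 0.00335), while Nadk2 fell by 0.50, Idh1 by 0.37 and Idh2 by 0.35. Of 15 haem and iron genes 3 rose and 1 fell, with the iron exporter Slc40a1 at 1.12 (adjusted p = 0.0162) and Lcn2, the siderophore-binding lipocalin also made by neutrophils, at 1.0 (adjusted p = 0.00541). Of 30 reductases, dehydrogenases and exporters 4 rose and 5 fell. The metallothioneins Mt2 (2.28, adjusted p = 0.000354) and Mt1 (1.89, adjusted p = 0.000589) rose most, and Akr1b8 (0.61) and Aldh3a1 (0.65) rose too, while Fmo1 fell by 0.69 and Cyp2f2 by 0.35. Of 11 oxidant sources 1 rose and 3 fell, with Ncf1, a neutrophil oxidase subunit, at 0.75 (adjusted p = 0.0341) and Nox4 at -0.99 (adjusted p = 0.00854).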

How the data were processed

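The authors deposited normalized log2 values of 45101 probe sets for 12 arrays. MAS5 and GCRMA are named, without role or version, in the submitters' processing notes. Array medians ranged from 4.36 to 4.58, and precision is limited by how few arrays there are. Control probe sets (64) were left out, and probe sets above the array's own median on 3 or more arrays were kept (23082 of 45037). Names are those of GEO's platform annotation: 34945 probe sets had 1 symbol, 932 several and 9160 none, and 34741 matched RefSeq with 0 symbols changed. Where a gene had several kept probe sets, that of highest mean stood for it. By the platform's naming, probe sets ending in _x_at or _s_at (here those of Pgd, Tkt, Gstm1, Srxn1 and Sod1) can match related transcripts too.

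limma 3.58.1 in R 4.3.3 fitted 1 mean per group to all arrays (8 residual and 3.36 prior degrees of freedom) with a mean-variance trend, and 7 two-sided contrasts were adjusted by Benjamini-Hochberg over 10996 genes. The fit was tested on simulated data. Group levels are means with SD (n = 3). The members and gene lists were chosen with earlier results of these data known. Every member is accounted for, with array values for members called in any contrast and for 11 named for their role. Of the further genes, the plan was to name at most 10 called per contrast. For the averaged VILI test more were named, from each list, and the other called genes are only counted. The design text gives 3 mice per group, so arrays were taken as separate mice.

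Arrays with the same replicate number deviated together between wild type and knockout SB (r = 0.231, 0.526 and 0.318), where fitting the number as a block gave 0 called members, as without it. The other comparisons had at least 1 pair at or under 0.1. Alternatives were the filter, scaling, probe set rule, variance model, samples in the fit, the block, and leaving out arrays.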

Additional observations from a re-analysis of the deposited data

Results flagged for a closer look

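Gclm was lower on every knockout array than on every wild type array in SB, and higher on every knockout array than on every wild type array after VILI. The genotype differences were -0.58 (SE 0.19) in SB and 0.46 (SE 0.19) after VILI, with adjusted p of 0.37 and 0.71. The test of the difference between them gave 1.04 (SE 0.27, limma adjusted p = 1), so it did not pass over the genes tested.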

How the results depend on the processing

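The count of members called for VILI in wild type, 2, was 0 with no filter on low values, 1 with centred arrays, 1 with the mean over probe sets, 4 with only the wild type arrays and 4 without replicate 3 of both knockout groups. The count in knockout, 9, was 0 with only the knockout arrays and 4 without replicate 3 of both knockout groups. The count for genotype averaged over treatments, 1, was 0 with the mean over probe sets. Without 1 array the counts ranged from 0 to 3 in wild type, 3 to 12 in knockout, 8 to 14 averaged over genotypes, 0 to 1 for each genotype contrast and 0 to 0 for the interaction. Of 24 member calls, 11 held in each of the 12 fits without 1 array and 8 under each other setting, and no called value changed sign under the settings tried.

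Over all genes, VILI calls in wild type were 290, and 112 with no filter, 442 with the replicate block, 475 with only its arrays, 653 without replicate 3 of both knockout groups and 19 to 487 without 1 array. In knockout they were 491, and 306 with no filter, 11 with only its arrays, 110 without the 2 arrays and 69 to 713 without 1 array. Genotype calls averaged over treatments were 50, and 23 with no filter, 28 without the 2 arrays and 22 to 161 without 1 array. Without 1 array the averaged VILI calls ranged from 1128 to 2084 around 1958, and the genotype calls after VILI from 8 to 42 around 11. The share of higher calls was 51.4% in wild type, 61.9% in knockout and 47.3% averaged, and 40.4%, 51.0% and 36.7% with quantile normalization. With centred arrays the averaged share was 36.6%.

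With the replicate block the VILI counts were 3 members in wild type, 9 in knockout and 14 averaged, since Gclc in wild type (adjusted p = 0.0454) and Gpx4 (0.0109) and Osgin1 (0.041) averaged also passed, and it changed no other member's call. The block counts for the genotype contrasts and the interaction were those without it. The causes of these shifts were not tested.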
